A study of Oryza sativa with 4 samples.

Results

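The effect of silencing OsCPK21 in rice spikelets was compared between a late and an early stage of anther development. For each gene, the log2 ratio of RNAi over ZH11 at stage 12 had the log2 ratio of RNAi over ZH11 at stage 9 subtracted from it. A positive stage difference means that RNAi stood higher relative to ZH11 at stage 12 than at stage 9, and a negative one that it stood lower. All 4 arrays of the series enter this difference, 1 per group: OsCPK21-RNAi spikelets at stage 12, ZH11 spikelets at stage 12, OsCPK21-RNAi spikelets at stage 9 and ZH11 spikelets at stage 9. Both genotypes share the japonica background ZH11 and were grown untreated in 1 field. The labels name 3 RNAi lines, and the sources used here give neither the promoter of the RNAi construct nor whether an RNAi array holds 1 line or a pool. Each array carried labelled RNA from whole spikelets, which hold husks, lodicules, pistil and anthers, so that fewer cells of a type and less RNA per cell cannot be told apart. Of 17905 genes matched to probe sets, 14689 had at least 1 genotype above a signal of 71 at each stage and could be compared between stages. Every signal under 71 was raised to that floor, so a ratio or difference that rests on a floored array is a bound ("at least" or "at most").

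OsCPK21 belongs to the plant calcium-dependent protein kinases, which read calcium signals by phosphorylating other proteins. In rice anthers, stage 9 is the time of free young microspores, fed and coated by the tapetum, the secretory cell layer around them. By stage 12 the tapetum has broken down, and maturing pollen stores starch and makes the wall and actin proteins that the pollen tube later uses. Jasmonate acts in late anther development and in wound responses: the hormone is made through lipoxygenase, allene oxide synthase and oxophytodienoate reductase (OPR), and its response genes are held down by JAZ repressors, many of which the hormone itself switches on.

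With 1 array per group, no spread between replicates exists and no p-value was computed. Differences are descriptions of these 4 arrays. OsCPK21 itself had a signal of 17.6 in RNAi and 2719 in ZH11 at stage 12, and 206 in RNAi and 1939.6 in ZH11 at stage 9. It was at least 38.3-fold lower in RNAi at stage 12 and 9.41-fold lower at stage 9, so its stage difference was at most -2.03 (-1.03 with the floor doubled, under the threshold for a call). Its signal was thus low on both arrays titled RNAi and lowest at stage 12. The genotype field of the labels names the opposite genotype on every sample, and directions here follow the titles. In addition, 2 of 64 probe sets for reporter sequences gave signals of 1318 and 2923 in RNAi and 5406 and 7544 in ZH11 at stage 12, and of 380 and 841 in RNAi and 5523 and 10742 in ZH11 at stage 9. They were brighter on the arrays titled ZH11, while the other reporter probe sets did not pass 105 on any array. Whether the OsCPK21 probe set overlaps the RNAi construct is not given in the sources used here. If the titles rather than the genotype field were wrong, every ratio and every stage difference below would change its sign.

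Trimmed mean signals lay between 333 and 367 on the 4 arrays. The hybridisation spikes had a stage difference of 0.18. The 12 probe sets of the poly-A spikes, bacterial transcripts added before labelling, averaged 794 in RNAi and 571 in ZH11 at stage 12, and 384 in RNAi and 612 in ZH11 at stage 9. Their stage difference was 1.15, and the amounts added are not given in the sources used here. With arrays scaled to equal spike signals, stage differences of genes well above the floor were lower by that much and those of genes at the floor by another amount (RAFTIN1 moved to 3.70 and OsC6 to 5.65), and the split of calls below was 24 positive and 1332 negative. The ratio of 3′ to 5′ actin signals was 8.53 in RNAi and 10.3 in ZH11 at stage 12, and 4.20 in RNAi and 3.89 in ZH11 at stage 9. The part of spike level and RNA quality in the results was not tested.

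The RNAi effect was similar at both stages for most genes. The median stage difference over the 14689 genes was 0.05, and 12810 of them (87.2%) lay within 2-fold of no difference. A difference of 4-fold or more, the size used as a call, was negative for 359 genes (2.44% of those compared) and positive for 121 genes (0.824%). Negative differences also reached further: 75 genes passed 16-fold in the negative direction and 8 in the positive one. All 4 arrays were above the floor for 239 of the negative and 88 of the positive genes. The sign was open for 16 negative and 5 positive genes, because arrays at the floor left the true difference free to lie nearer 0 or on its other side. Near the threshold, FH10 at 2.01 was called and UGE-3 at 1.99 was not, and BGLU25 at -2.01 was called and Hsf-11 at -1.996 was not. Where a gene had several probe sets seen at both stages (2002 genes), the SD of the stage difference between them was 0.412. Of 26 negative genes with another such probe set, 22 had the same sign on it and 15 passed 4-fold on it. Of 11 positive genes, 9 had the same sign and 4 passed 4-fold.

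The 2 directions of call differed in which stage carried the RNAi effect. In 239 of the 359 negative genes RNAi was at least 2-fold lower than ZH11 at stage 12 and within 2-fold of it at stage 9. Another 77 were higher in RNAi at stage 9 and within 2-fold at stage 12, 26 were higher at stage 9 and lower at stage 12, 11 were higher at both stages by different factors, and 6 were lower at both. Of the 121 positive genes, 64 were lower in RNAi at stage 9 and within 2-fold at stage 12. A further 32 were higher in RNAi at stage 12 and within 2-fold at stage 9, 21 were lower at stage 9 and higher at stage 12, and 4 were lower at both. Median signals over the negative genes were 151 in RNAi and 986 in ZH11 at stage 12, and 344 in RNAi and 149.7 in ZH11 at stage 9. Median signals over the positive genes were 565 in RNAi and 221 in ZH11 at stage 12, and 186 in RNAi and 571 in ZH11 at stage 9. Among these medians the negative genes stood out as bright in ZH11 at stage 12, and the positive ones as dim in ZH11 at stage 12 and in RNAi at stage 9. The same 4 signals define a call, so this layout partly follows from the rule.

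**Figure D1:**
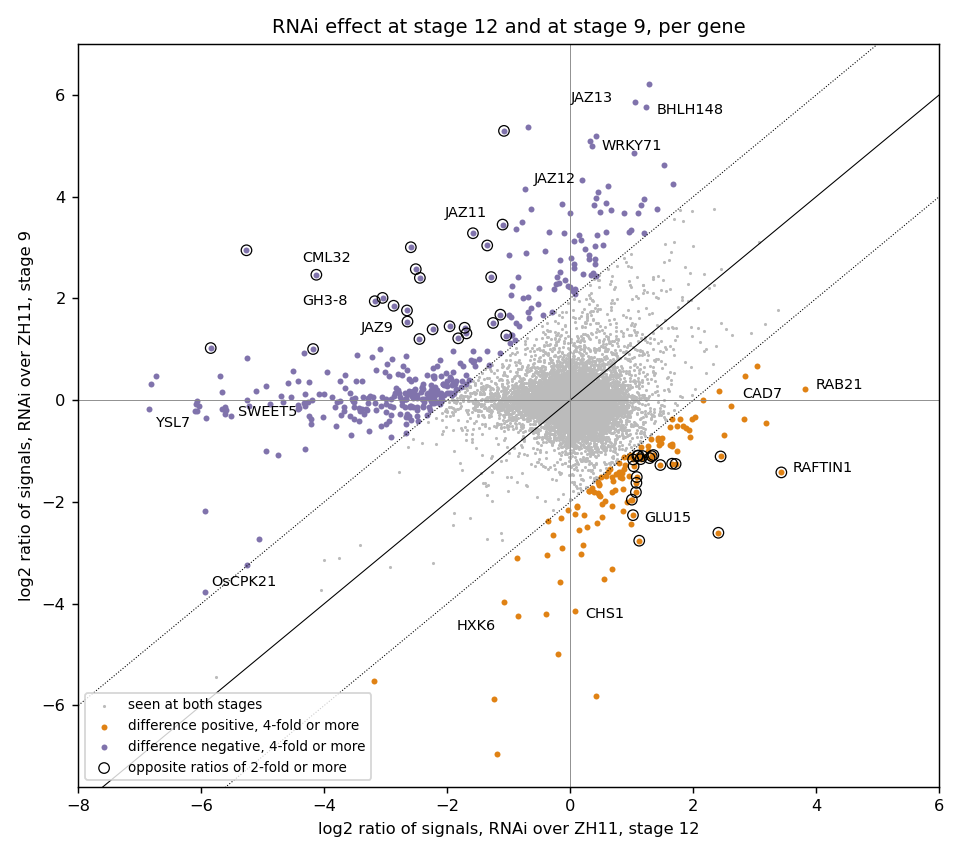
Log2 ratio of RNAi over ZH11 at stage 12 (horizontal axis) against the log2 ratio at stage 9 (vertical axis) for the 14689 genes seen at both stages, signals floored at 71. The solid line marks equal ratios and the dotted lines a 4-fold difference, which 359 genes pass above the upper dotted line (negative) and 121 pass below the lower one (positive). Circles mark the 26 and 21 genes with opposite ratios of at least 2-fold.

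A change of direction was rare. Over the 14689 genes, 368 were at least 2-fold higher (2.51%) and 730 at least 2-fold lower (4.97%) in RNAi at stage 12, while 448 were higher (3.05%) and 296 lower (2.02%) at stage 9. The ratios at the 2 stages share no array. The 26 genes lower at stage 12 and higher at stage 9 (0.177%) made up 3.56% of the stage 12 lower list and 5.80% of the stage 9 higher list, a share near the 4.97% that were lower at stage 12 among all genes. The 21 genes higher at stage 12 and lower at stage 9 (0.143%) made up 5.71% of the stage 12 higher list and 7.09% of the stage 9 lower list, beside 2.51% higher at stage 12 among all genes. In comparison, 106 genes were higher in RNAi at both stages, which is 28.8% of the stage 12 higher list and 23.7% of the stage 9 higher list. Another 42 were lower at both, 5.75% of the stage 12 lower list and 14.2% of the stage 9 lower list. A gene 2-fold higher in RNAi at one stage was therefore more often 2-fold higher than 2-fold lower at the other.

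Among the genes that were lower in RNAi at stage 12 and higher at stage 9, 6 carried a gene name. CML32, a calmodulin-like calcium sensor, had signals of 154 in RNAi and 2687 in ZH11 at stage 12, and 392 in RNAi and 35.4 in ZH11 at stage 9. It was 17.5-fold lower at stage 12 and at least 5.52-fold higher at stage 9, a stage difference of at most -6.59. GH3-8, an enzyme that inactivates auxin by joining it to amino acids, had signals of 798 in RNAi and 7233 in ZH11 at stage 12, and 1139 in RNAi and 296 in ZH11 at stage 9. The ZH11 signal was the highest of the 4 at stage 12 and the lowest at stage 9, with both RNAi signals between (stage difference -5.12). DAO, a dioxygenase that oxidises auxin, read 405 in RNAi and 1434 in ZH11 at stage 12, and 263 in RNAi and 113 in ZH11 at stage 9 (stage difference -3.04). Both of these auxin-inactivating enzymes had their peak on the ZH11 stage 12 array. A pyruvate decarboxylase gene (LOC4339066), of fermentation, read 122 in RNAi and 474 in ZH11 at stage 12, and 194 in RNAi and 33.0 in ZH11 at stage 9 (at most -3.41). JAZ9 and JAZ11, described with the jasmonate genes, were the remaining named members.

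The largest stage difference of all was at LOC4337342, which has no name in the tables used. Its signals were 162 in RNAi and 6217 in ZH11 at stage 12, and 547 in RNAi and 13.1 in ZH11 at stage 9. It was 38.5-fold lower in RNAi at stage 12 and at least 7.70-fold higher at stage 9 (at most -8.21).

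Among the genes that were higher in RNAi at stage 12 and lower at stage 9, 4 carried a name. RAFTIN1, a tapetum protein needed for pollen maturation, had signals of 2149 in RNAi and 199 in ZH11 at stage 12, and 1275 in RNAi and 3414 in ZH11 at stage 9. It was 10.8-fold higher in RNAi at stage 12 and 2.68-fold lower at stage 9, a stage difference of 4.85. Its ZH11 signal was high at stage 9 and low at stage 12, while both RNAi signals lay between them. GLU15, of the endo-glucanase family that acts on cell wall glucans, read 8212 in RNAi and 4052 in ZH11 at stage 12, and 203 in RNAi and 973 in ZH11 at stage 9 (3.28). ERG1, a small calcium-binding C2-domain protein first known as elicitor-responsive, read 255 in RNAi and 122 in ZH11 at stage 12, and 96.6 in RNAi and 339 in ZH11 at stage 9 (2.88). AT4 read 893 in RNAi and 422 in ZH11 at stage 12, and 431 in RNAi and 1229 in ZH11 at stage 9 (2.59). At stage 12 the ratios of GLU15, ERG1 and AT4 were only just past 2-fold, at 2.03, 2.10 and 2.12. With the floor doubled, ERG1 was within 2-fold at stage 12. The only probe set of GLU15 is of the kind that can match several transcripts, so its signal may not be of this gene alone. The unnamed gene LOC4346585 read 377 in RNAi and 30.4 in ZH11 at stage 12, and 8.26 in RNAi and 433 in ZH11 at stage 9 (at least 5.02), and its other probe set gave 3.35.

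Jasmonate genes had the lowest median stage difference of the 12 gene lists, which were written with earlier results of these data known. Of 29 members seen at both stages, 10 had a negative and none a positive call, and the median was -0.94, beside 2.44% negative calls and a median of 0.05 over all genes. Among JAZ repressors 6 of 12 were called, all negative, with a median stage difference of -2.39. JAZ12 had signals of 1570.2 in RNAi and 2618 in ZH11 at stage 12, and 2679 in RNAi and 150.4 in ZH11 at stage 9. It was within 2-fold at stage 12 and 17.8-fold higher in RNAi at stage 9, a stage difference of -4.89. JAZ13 read 1121 in RNAi and 538 in ZH11 at stage 12, and 5923 in RNAi and 102 in ZH11 at stage 9 (-4.80). For both, the ZH11 stage 9 array was by far the dimmest of the 4.

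JAZ11 and JAZ9 went further and changed direction, JAZ11 only narrowly at stage 12. With median scaling of the arrays, JAZ11 was within 2-fold at stage 12. JAZ11 read 828 in RNAi and 1777 in ZH11 at stage 12, and 3189 in RNAi and 292 in ZH11 at stage 9, so that it was 2.14-fold lower at stage 12 and 10.9-fold higher at stage 9 (-4.55). JAZ9 read 617 in RNAi and 3868 in ZH11 at stage 12, and 7313 in RNAi and 2508 in ZH11 at stage 9 (-4.19). In both genes the RNAi stage 9 array was the brightest. JAZ10 (-3.06) and JAZ8 (-3.04) were higher in RNAi at stage 9, by 8.70-fold and 4.21-fold, and within 2-fold at stage 12. BHLH148, a transcription factor that binds JAZ proteins in rice, read 799 in RNAi and 339 in ZH11 at stage 12, and 3854 in RNAi and 45.1 in ZH11 at stage 9 (at most -4.53). JAZ1, JAZ3 and JAZ7, in contrast, had stage differences of -0.01, 0.00 and 0.05 at signals between 1062 and 9202, and JAZ2 was lower in RNAi at both stages (stage difference at most -0.67).

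Biosynthesis and perception genes of jasmonate were mixed. OPR1 (LOC4340490) read 122 in RNAi and 243 in ZH11 at stage 12, and 732 in RNAi and 101 in ZH11 at stage 9 (-3.85). OPR4 read 761 in RNAi and 677 in ZH11 at stage 12, and 1234 in RNAi and 139 in ZH11 at stage 9 (-2.98). OPR7, the reductase known to act in jasmonate synthesis in rice, had a stage difference of -0.53 only. JAR1, which joins jasmonate to isoleucine, differed from these in being lower at stage 12 with little difference at stage 9: 152 in RNAi and 945 in ZH11 at stage 12, and 298 in RNAi and 373 in ZH11 at stage 9 (-2.32). The receptors COI1A and COI1B (0.44 and 0.37) and the adaptor NINJA1 (0.17) were within 2-fold.

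**Figure D2:**
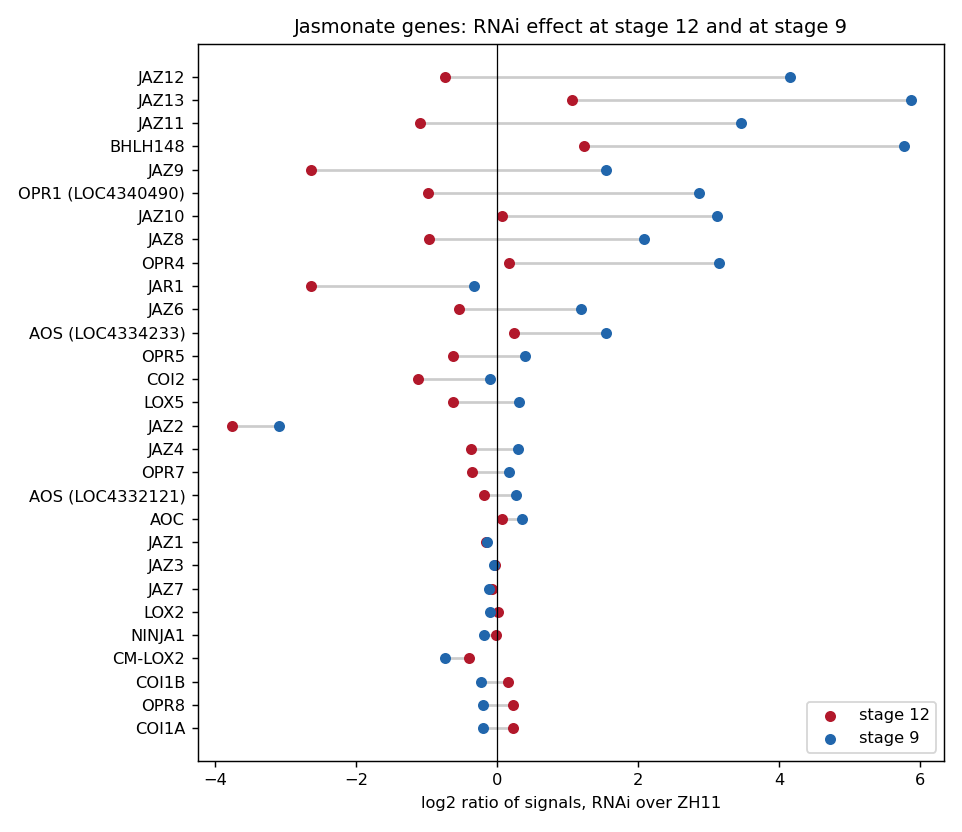
Log2 ratio of RNAi over ZH11 at stage 12 (red) and at stage 9 (blue) for the 29 jasmonate genes seen at both stages, ordered from the most negative stage difference at the top, with signals floored at 71. In the 9 uppermost genes, JAZ12 to OPR4, the stage 9 point lies far to the right of the stage 12 point. In JAR1 both points lie left of 0 with stage 12 further out.

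Neighbouring genes were among those called. Over gene order, 17 runs of called genes with the same sign lay within 3 steps of each other and held 36 of the 480 called genes. Of the runs 15 were negative, beside 359 negative and 121 positive calls in all. How many runs a random gene order would give was not computed, so the number of runs is a description only. JAZ9, JAZ11 and JAZ10 formed 1 run, JAZ13 and JAZ12 another, and OPR4 and OPR1 one more, so these jasmonate genes are neighbours of 1 family and not independent observations. Near-identical copies can share hybridising RNA on an array. Without probe sets that can match several transcripts, JAZ10 was at -3.58, and JAZ9, JAZ11, JAZ12, JAZ13, OPR1 and OPR4 kept the same values. The part of shared hybridisation in their common difference was not otherwise tested. YSL7 and YSL8, and MEX1 with its neighbour LOC4336890, were further runs.

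Some defence and heat stress genes were, like 5 of the 10 called jasmonate genes, higher in RNAi at stage 9 and within 2-fold at stage 12. WRKY71, a transcription factor of defence and gibberellin responses, had signals of 5076 in RNAi and 3972 in ZH11 at stage 12, and 5262 in RNAi and 165 in ZH11 at stage 9. It was high on 3 arrays and low only in ZH11 at stage 9 (-4.64, and -2.81 on its other probe set). PAL06, a phenylalanine ammonia-lyase at the entry to phenylpropanoids, read 2802 in RNAi and 2364 in ZH11 at stage 12, and 1378 in RNAi and 176 in ZH11 at stage 9 (-2.73). Heat stress genes with the same layout were HSP24.1 (at most -3.11), HSFA3 (-2.73) and HSP17.4 (-2.12). HSFA3, a heat stress transcription factor, read 562 in RNAi and 378 in ZH11 at stage 12, and 3369.9 in RNAi and 341 in ZH11 at stage 9. The heat shock list as a whole had 3 negative calls and 1 positive one in 37 genes and a median of 0.18, beside 2.44% negative and 0.824% positive over all genes. HSFA4D was the positive one (2.21, and 1.75 with the floor doubled, which left no positive call), with 370.2 in RNAi and 137 in ZH11 at stage 12, and 107 in RNAi and 183 in ZH11 at stage 9.

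The remaining defence and phenylpropanoid genes that were called had positive differences. The list held 3 positive and 2 negative calls in 26 genes (median 0.18), beside 2.44% negative and 0.824% positive over all genes. CHS1, chalcone synthase of flavonoid synthesis, had signals of 7819.6 in RNAi and 7438 in ZH11 at stage 12, and 176 in RNAi and 3096 in ZH11 at stage 9. It was 17.6-fold lower in RNAi at stage 9 and within 2-fold at stage 12 (4.21), yet its 3 probe sets seen at both stages ranged down to 0.00, and the mean over its probe sets was 0.89, so this difference rests on part of its probes. CAD7, of the cinnamyl alcohol dehydrogenase family of lignin synthesis, read 593 in RNAi and 96.6 in ZH11 at stage 12, and 927 in RNAi and 999 in ZH11 at stage 9 (2.73). Only the ZH11 stage 12 array was low. GER7, a germin-like protein, read 867 in RNAi and 359.6 in ZH11 at stage 12, and 201 in RNAi and 401 in ZH11 at stage 9 (2.26).

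Of the 239 genes lower in RNAi at stage 12 and within 2-fold at stage 9, the named ones with the most negative differences of settled sign were a metal transporter, a sugar exporter and a kinase. YSL7, of the yellow stripe-like transporters, had signals of 69.3 in RNAi and 8205 in ZH11 at stage 12, and 116 in RNAi and 131 in ZH11 at stage 9. It was at least 116-fold lower in RNAi at stage 12, with a stage difference of at most -6.68. The sugar exporter SWEET5 read 111 in RNAi and 3860.0 in ZH11 at stage 12, and 165 in RNAi and 146 in ZH11 at stage 9 (-5.30). MPK17, a mitogen-activated protein kinase, read 106 in RNAi and 3255 in ZH11 at stage 12, and 216 in RNAi and 178 in ZH11 at stage 9 (-5.22). In all 3 genes the ZH11 stage 12 array alone was bright. Of the unnamed genes, LOC4332418 (-7.13) and LOC4328091 (at most -7.20) had the same layout, at 8311 and 7552 in ZH11 at stage 12 and at most 329 on any other array.

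In the sugar and starch list, 3 of 31 genes were negative and 1 positive (median -0.12), beside 2.44% negative and 0.824% positive over all genes. MEX1, the plastid maltose exporter of starch breakdown, had signals of 374 in RNAi and 4739.9 in ZH11 at stage 12, and 713 in RNAi and 507 in ZH11 at stage 9 (-4.16). SWEET15 read 48.6 in RNAi and 569 in ZH11 at stage 12, and 702 in RNAi and 969 in ZH11 at stage 9 (at most -2.54, and -1.54 with the floor doubled). Hexokinase HXK6, which phosphorylates glucose, went the other way: 559 in RNAi and 1012 in ZH11 at stage 12, and 132 in RNAi and 2492 in ZH11 at stage 9 (3.38). Its RNAi signal was 18.8-fold lower at stage 9 and within 2-fold of ZH11 at stage 12.

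The calcium list, to which OsCPK21 belongs, had 5 negative calls and 1 positive one in 72 genes (median 0.03), beside 2.44% negative and 0.824% positive over all genes. With the floor doubled 2 negative calls were left. CPK6, a kinase of the same family, read 26.6 in RNAi and 1655 in ZH11 at stage 12, and 73.8 in RNAi and 48.9 in ZH11 at stage 9 (at most -4.60). CML28 (-3.02) and CML11 (-2.20) were lower in RNAi at stage 12, by 10.8-fold and 6.39-fold, and within 2-fold at stage 9. CML14 had the opposite sign, with 808 in RNAi and 112 in ZH11 at stage 12, and 1226 in RNAi and 886 in ZH11 at stage 9 (2.38). No other of the 17 CPK genes and none of the 20 CIPK genes seen at both stages was called.

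**Figure D3:**
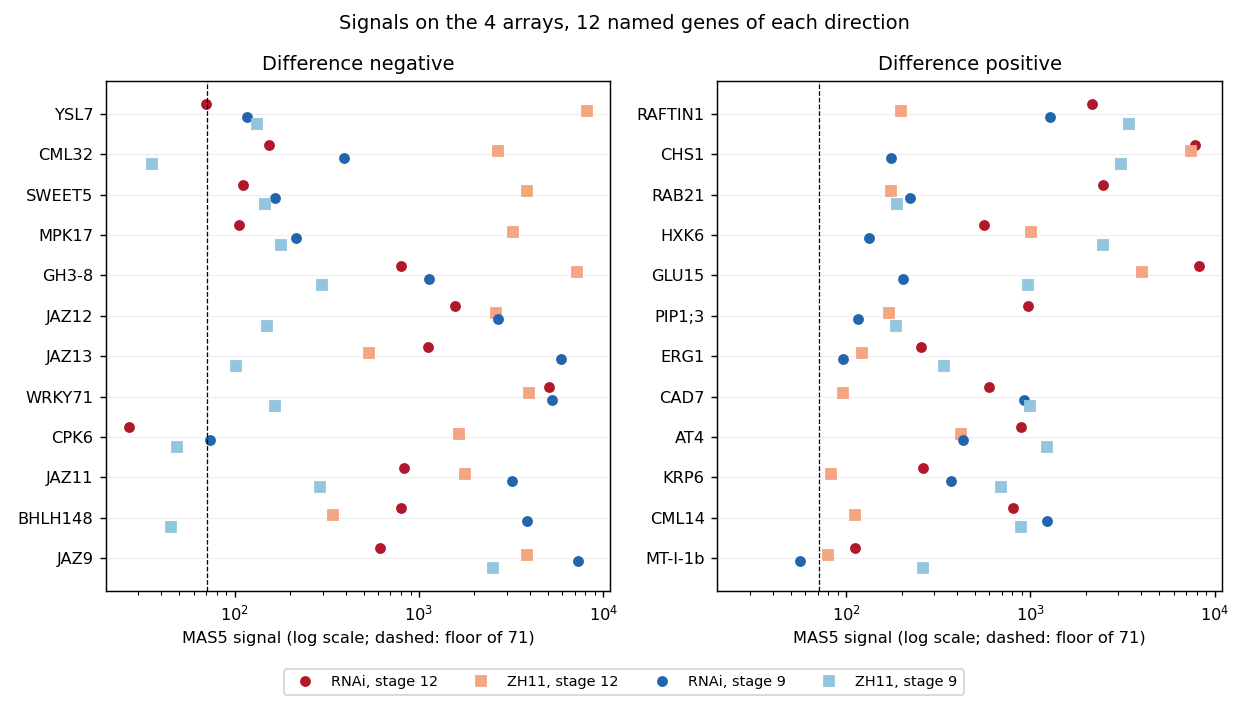
MAS5 signals (horizontal log axis) on the 4 arrays for the 12 named genes with the most negative stage difference (left panel) and the 12 with the most positive one (right panel) among those whose sign is settled, as deposited, with the floor of 71 dashed. On the left, YSL7, SWEET5 and MPK17 have 1 bright array, ZH11 at stage 12, while JAZ12, JAZ13 and WRKY71 have 1 dim array, ZH11 at stage 9.

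Abscisic acid and dehydration genes had calls of both signs, 2 positive and 6 negative in 81 genes (median 0.06), beside 2.44% negative and 0.824% positive over all genes. The positive calls were 1 with the floor doubled, and the negative ones 4 with the mean of probe sets. RAB21, a dehydrin, had signals of 2464 in RNAi and 175 in ZH11 at stage 12, and 222 in RNAi and 189.6 in ZH11 at stage 9. It was 14.1-fold higher in RNAi at stage 12 and within 2-fold at stage 9 (3.59, with 3.54 on its other probe set). RAB25 was the other positive gene, at 132 in RNAi and 64.5 in ZH11 at stage 12, and 104 in RNAi and 251 in ZH11 at stage 9 (at least 2.16). Of 54 type 2C protein phosphatases, the family that holds the inhibitors of abscisic acid signalling, 5 were negative and none positive, beside 2.44% negative and 0.824% positive over all genes. PP2C15 read 493 in RNAi and 2133 in ZH11 at stage 12, and 1440.3 in RNAi and 838 in ZH11 at stage 9 (-2.89). PP2C13 (-2.29) and PP2C59 (at most -2.44) were likewise lower in RNAi at stage 12, by 4.67-fold and 4.96-fold. PP2C75 (-2.40) was so on one of its 3 probe sets, another giving 0.12 and the mean -0.80. PP2C29 was higher in RNAi at both stages, 2.65-fold at stage 12 and 13.5-fold at stage 9 (-2.35). The stress transcription factor NAC6 was just past the threshold (-2.01, and -0.67 as the mean of its probe sets).

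Tapetum and pollen wall genes had the highest median of the 12 lists, 0.61 over 13 genes, with 3 positive calls and 1 negative one, beside 2.44% negative and 0.824% positive over all genes. With the floor doubled no negative call was left. The tapetum median was then 0.39, below those of photosynthesis (0.44) and floral organ identity (0.42), so its rank depends on the floor. Under scaling to the poly-A spikes it was also below that of photosynthesis. RAFTIN1 is given above. AP25, an aspartic protease of tapetal cell death, read 363 in RNAi and 209.9 in ZH11 at stage 12, and 3759.7 in RNAi and 8803 in ZH11 at stage 9 (2.02). OsC6, a lipid transfer protein of the pollen wall, read 37.8 in RNAi and 162 in ZH11 at stage 12, and 45.4 in RNAi and 8767 in ZH11 at stage 9. It was at least 123-fold lower at stage 9 and at least 2.29-fold lower at stage 12, so that the size and sign of its stage difference are unsettled. RTS, a tapetum gene, likewise had no settled sign, at 75.7 in RNAi and 1603 in ZH11 at stage 12, and 68.6 in RNAi and 79.3 in ZH11 at stage 9. TDR and PTC1, tapetum regulators, had stage differences of -1.22 and -0.98, and EAT1, another, at most 1.56.

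Signals of marker genes were summed for cell types of the spikelet, and such sums cannot separate fewer cells from less RNA per cell. The 8 tapetum markers measured summed to 3278 in RNAi and 1605 in ZH11 at stage 12, and to 29328 in RNAi and 48816 in ZH11 at stage 9. At the floor were 3 of them in RNAi and 2 in ZH11 at stage 12, and 1 in RNAi and 0 in ZH11 at stage 9. RAFTIN1 alone gave 2149 of the sum of RNAi at stage 12. The tapetum markers did not move together at stage 9. TDR (3571 in RNAi and 2841 in ZH11) and PTC1 (3282 in RNAi and 1491 in ZH11) were higher in RNAi there. The other tapetum markers were lower in RNAi at stage 9. By ratio the gap was largest at OsC6 (45.4 in RNAi and 8767 in ZH11), then at EAT1 (505 in RNAi and 1989 in ZH11). RAFTIN1 and then AP25 (3759.7 in RNAi and 8803 in ZH11) followed. The 5 markers of maturing pollen summed to 357 in RNAi and 42887 in ZH11 at stage 12, and to 232 in RNAi and 228 in ZH11 at stage 9. At the floor were 3 of these in RNAi and 0 in ZH11 at stage 12, and 5 in RNAi and 4 in ZH11 at stage 9. The pollen markers were thus bright on the same single array as YSL7, SWEET5 and MPK17. They were chosen with earlier results of these data known, so this likeness is no independent evidence. Over all ADF and EXPB genes seen at both stages, the median stage differences were 0.03 and 0.13. These medians leave out the markers EXPB9, EXPB10 and ADF1, which were at the floor in both genotypes at stage 9. The part of pollen in the negative differences was not tested. The 4 green husk markers summed to 7515 in RNAi and 6994 in ZH11 at stage 12, and to 1230 in RNAi and 1681 in ZH11 at stage 9. The 4 markers of floral organs other than the anther summed to 15676 in RNAi and 14487 in ZH11 at stage 12, and to 11818 in RNAi and 12722 in ZH11 at stage 9. The 3 meiocyte markers summed to 1466 in RNAi and 1147 in ZH11 at stage 12, and to 2371 in RNAi and 1846 in ZH11 at stage 9.

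The late pollen wall and actin list illustrates a limit of the comparison. Of its 47 members 38 were seen at both stages, with 2 positive calls and 1 negative one (median 0.13), beside 2.44% negative and 0.824% positive over all genes. With the floor doubled 1 positive and no negative call was left. The strongest pollen genes could not be compared, because both genotypes were at the floor at stage 9. EXPB9, a beta-expansin that loosens grass cell walls, read 56.4 in RNAi and 13529 in ZH11 at stage 12, and 51.8 in RNAi and 53.4 in ZH11 at stage 9. EXPB10 read 11378 in ZH11 at stage 12 and at most 14.4 on the other arrays. ADF1, an actin-depolymerising factor, read 105 in RNAi and 7845 in ZH11 at stage 12, and 58.9 in RNAi and 59.1 in ZH11 at stage 9. NifU1, which is outside this list and not a pollen marker here, had the same layout, at 5932 in ZH11 at stage 12 and under 71 on the other arrays. ADF6, counted as the negative call, stayed unsettled in sign because RNAi was at the floor at both stages (4751 in ZH11 at stage 12 and 82.4 in ZH11 at stage 9). The positive members were FH10, a formin, at least 2.01, and EXPB3, at 3223 in RNAi and 1203 in ZH11 at stage 12, and 3683 in RNAi and 6165 in ZH11 at stage 9 (2.17).

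In all, 1292 genes were seen at stage 12 only and 659 at stage 9 only. Over the genes seen at both stages, 2.51% were at least 2-fold higher and 4.97% at least 2-fold lower in RNAi at stage 12. Of the 1292 genes seen at stage 12 only, 91 were at least 2-fold higher and 398 at least 2-fold lower in RNAi. The named ones with the largest higher ratio were the germin-like genes GER2 (at least 5.90-fold) and GER1 (at least 4.68-fold), Cht11, a chitinase (3.98-fold), and MT-I-4c, a metallothionein (3.66-fold). At stage 9 the shares over genes seen at both stages were 3.05% higher and 2.02% lower. Of the 659 genes seen at stage 9 only, 57 were at least 2-fold higher and 52 at least 2-fold lower in RNAi. GH3-9, another GH3 enzyme, was 3.23-fold higher, HDAC3, a histone deacetylase, 3.13-fold higher, HSP17.8, a small heat shock protein, 2.75-fold higher and C3H47, a zinc finger protein, 2.73-fold higher. MADS55 (3.18-fold), CASPL1B1 (2.27-fold), C3H43 (2.17-fold) and CASPL1U3 (2.01-fold) were lower.

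Water channels had 2 positive calls and no negative one in 22 genes (median 0.21), beside 2.44% negative and 0.824% positive over all genes. One of the pair, NIP4;1, has an open sign, and 1 positive call was left with the floor doubled. PIP1;3, an aquaporin, read 972 in RNAi and 172 in ZH11 at stage 12, and 115 in RNAi and 187 in ZH11 at stage 9 (3.19). It stood out on the RNAi stage 12 array. NIP4;1 read 67.8 in RNAi and 81.5 in ZH11 at stage 12, and 51.4 in RNAi and 2244 in ZH11 at stage 9, at least 31.6-fold lower in RNAi at stage 9 and unsettled as a difference between stages. KRP6 and MT-I-1b, outside the lists, were also among the most positive. KRP6, a cyclin-dependent kinase inhibitor, read 259.9 in RNAi and 82.6 in ZH11 at stage 12, and 369.7 in RNAi and 693 in ZH11 at stage 9 (2.56, with 1.28 as the mean of its probe sets and 1.78 with the floor doubled). MT-I-1b, a metallothionein, was dim on all arrays (263 at most) with a difference of at least 2.38. Of the unnamed genes, LOC4331398 read 5579 in RNAi and 4176 in ZH11 at stage 12, and 81.0 in RNAi and 4559 in ZH11 at stage 9 (6.23 and 6.22 on its 2 probe sets), and LOC4336712 was lower in RNAi at both stages (at least 4.64).

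Photosynthesis (9 genes, median 0.44), floral organ identity (15 genes, 0.38) and meiosis (6 genes, -0.09) had no call in either direction. Over all genes the shares were 2.44% negative and 0.824% positive, so lists this short can easily hold no call. The floral organ identity genes, which specify the organs of the spikelet, lay between -0.49 and 0.69. The meiosis genes, of an earlier stage of the anther, lay between -0.87 and 0.30.

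**Figure D4:**
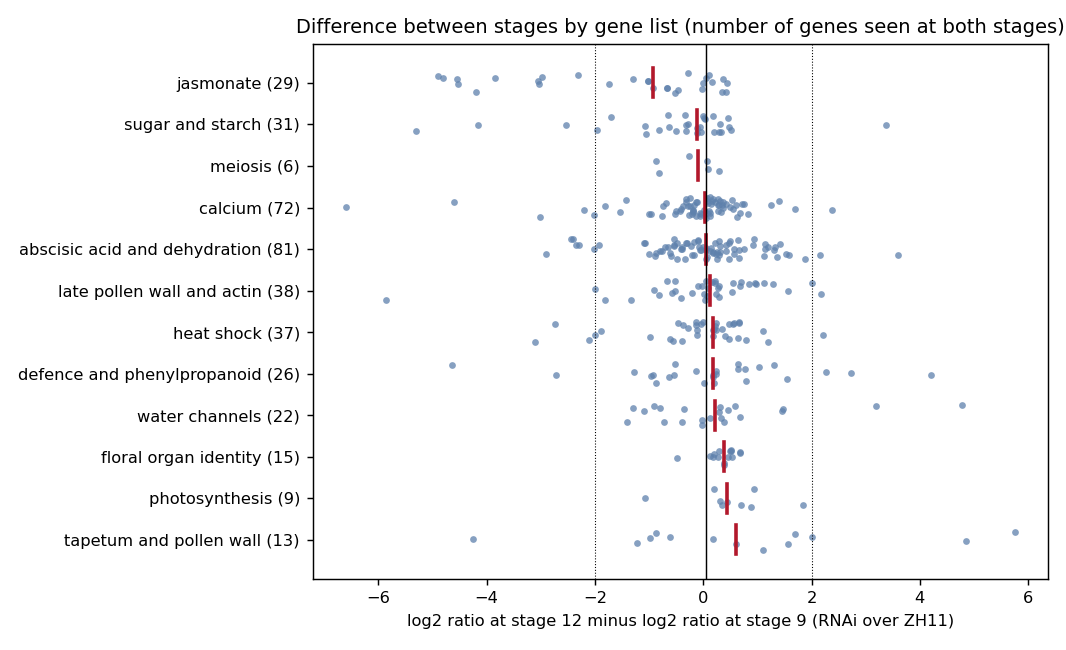
Stage difference (log2 ratio of RNAi over ZH11 at stage 12 minus that at stage 9) of each gene in 12 lists, with list medians as red bars, the median of all genes (0.05) as a solid line and the 4-fold thresholds dotted. Numbers in brackets count the genes seen at both stages. The jasmonate list has the lowest median (-0.94) and 10 genes left of the lower threshold, and the tapetum list has the highest (0.61).

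The same differences can be read as the change between stages within each genotype, where RNAi and ZH11 share no array. From stage 9 to stage 12, 79 genes (0.538%) were at least 2-fold up in ZH11 and at least 2-fold down in RNAi, and 14 (0.0953%) at least 2-fold up in RNAi and down in ZH11. Of these, 13 and 3 had a name. CML32 changed by -1.35 on the log2 scale in RNAi and by at least 5.24 in ZH11, JAZ11 by -1.94 in RNAi and 2.61 in ZH11, and JAZ13 by -2.40 in RNAi and 2.40 in ZH11. MPK17, BHLH148, OPR1 and HSP24.1 were further genes of this kind, and so were PP2C13, PP2C15 and PP2C75. AT1, BC1L9 and TPP2 (LOC4349333), a trehalose phosphate phosphatase, completed the 13. The 3 genes of the opposite kind were HXK6 (2.08 in RNAi and -1.30 in ZH11), ERG1 (1.40 in RNAi and -1.47 in ZH11) and AT4 (1.05 in RNAi and -1.54 in ZH11).

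**Figure D5:**
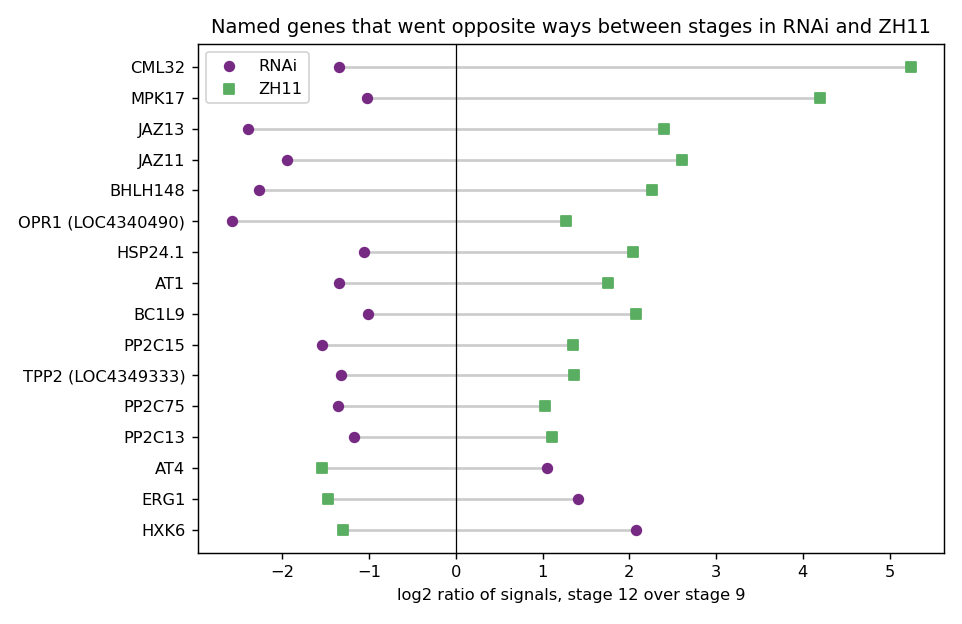
Log2 ratio of signals at stage 12 over stage 9 in RNAi (purple circles) and ZH11 (green squares) for the 16 named genes that were at least 2-fold up in one genotype and at least 2-fold down in the other, signals floored at 71. In the upper 13 genes RNAi lies left of 0 and ZH11 right of 0, and in HXK6, ERG1 and AT4 the sides are exchanged.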

How the data were processed

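Total RNA of whole spikelets was hybridised to 4 Affymetrix rice arrays, 1 per group. The deposited intensity values per probe set are MAS5 signals, per the submitters' processing notes; the version, the scaling target and the detection calls are not given in the sources used here. Values were used as deposited, without further scaling, with signals under 71 raised to 71, then log2 transformed (Python 3.11.15, numpy 2.4.6, pandas 2.3.3).

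Of 57258 probe sets that are not controls, 22436 matched 1 gene, 95 several and 34727 none in the platform annotation, and only the first kind was named. Gene names were looked up in RefSeq's table for ASM3414082v1. It held all 17905 genes and was used for names and gene order alone, since the build of the array design is not given. The probe set with the highest mean log2 signal stood for a gene. Over probe sets in place of genes, 566 of 28819 seen at both stages were negative and 188 positive, of which 172 and 53 had no gene.

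A gene was compared where 1 genotype was above the floor at each stage, and called at a difference of 4-fold. The rule for named genes took OsCPK21, the 12 named genes with the most negative and the 12 with the most positive settled difference, the named reversed genes, 4 named genes per stage and direction among those seen at 1 stage only, all called members of the 12 gene lists and 3 unnamed genes per direction. Members, lists and rules were chosen with earlier results of these data known. From the 499 list matches 47 were removed, being other kinds of protein by their further names. With 1 array per group no test was possible. The calculation was tested on simulated data. Alternatives were a doubled floor, a pseudocount of 16, median scaling, quantile normalization, the mean of probe sets, leaving out probe sets that can match several transcripts, 2-fold and 8-fold calls and, added after seeing the data, scaling to the poly-A spikes. A planned search for promoter motifs was not run, for want of sequence.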

Additional observations from a re-analysis of the deposited data

Results flagged for a closer look

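Genes whose RNAi effect had opposite directions at the 2 stages, with the single array of each genotype at least 2-fold apart at both, were taken up here. In none of them was the difference tested, since each group had 1 array. Lower in RNAi at stage 12 and higher at stage 9 were LOC4337342 (stage difference at most -8.21), CML32 (at most -6.59), GH3-8 (-5.12), JAZ11 (-4.55), JAZ9 (-4.19), PDC (LOC4339066, at most -3.41) and DAO (-3.04). Higher in RNAi at stage 12 and lower at stage 9 were LOC4346585 (at least 5.02), RAFTIN1 (4.85), GLU15 (3.28), ERG1 (2.88) and AT4 (2.59). For JAZ11, GLU15, ERG1 and AT4 the ratio at stage 12 was close to the 2-fold limit. JAZ11 was within 2-fold there with median scaling. With the floor doubled, ERG1 was within 2-fold at stage 12, and PDC and DAO at stage 9. With arrays scaled to the poly-A spikes, RAFTIN1 was within 2-fold at stage 9, and GLU15, ERG1 and AT4 at stage 12. The only probe set of GLU15 is of the kind that can match several transcripts.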

How the results depend on the processing

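With 1 array per group, neither a difference between plants nor one between hybridisations can be measured, and depth is limited by signal over the floor of 71. No paired analysis was possible because each group had 1 array. The stage difference of no named gene changed sign under any alternative that gave it a value. For named genes 13 such values were not available, most of them with the floor doubled. Opposite ratios at the 2 stages were less stable, as given for the flagged genes above. With arrays scaled to the poly-A spikes, chosen after seeing the data, the median difference of all genes moved to -1.09, and calls were 24 positive and 1332 negative against 121 and 359 as deposited. Reversed genes were then 234 (higher at stage 9, lower at stage 12) and 1 (the opposite), with 738 and 361 genes past 2-fold at stage 12 alone and at stage 9 alone. List medians under that scaling were -1.94 for jasmonate, -1.09 for abscisic acid, -0.97 for heat shock, -0.76 for tapetum, -1.09 for late pollen wall, -1.26 for sugar, -1.09 for calcium, -0.91 for defence, -0.94 for water channels, -0.71 for photosynthesis, -0.76 for floral identity and -1.24 for meiosis. Genes at the floor on an array moved less than others: OsC6 moved to 5.65 and OsCPK21 to -2.70, while RAFTIN1 moved to 3.70. Of the named genes, 12 with a positive call fell short of 4-fold there. With the floor doubled, calls were 75 positive and 219 negative, of which 75 and 216 were also called as deposited. Genes lower at stage 9 and higher at stage 12 were then 11, genes past 2-fold at stage 12 alone 157 and at stage 9 alone 93, and OsCPK21 had a difference of -1.03. Median scaling gave 32 genes lower at stage 9 and higher at stage 12. At 2-fold, 822 genes were positive and 1057 negative, and at 8-fold 23 and 160. The tapetum median was 1.10 without probe sets that can match several transcripts. Elsewhere the cause was not tested. Median scaling and quantile normalization each moved the median of all genes to 0.14. NAC6 fell below the threshold under both, and HSP17.4 under quantile normalization. NAC6, AP25 and FH10 did so with the pseudocount, and KRP6 (1.78), HSFA4D (1.75) and SWEET15 (-1.54) with the floor doubled. CHS1, KRP6, NAC6 and PP2C75 did so with the mean of probe sets.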

Other observations

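Further called genes with names lay outside the lists and were picked after their values were seen. They stand for no group of genes, and no list was counted. GH3-2, a relative of GH3-8 and of GH3-9, which was not seen at stage 12, read 1123 in RNAi and 3329 in ZH11 at stage 12, and 120.3 in RNAi and 47.6 in ZH11 at stage 9 (at most -2.33). ILL2 and ILL6, of the family of hydrolases that free auxin from its amino acid conjugates, had stage differences of at most -3.33 and of -2.20. ILL6 read 75.8 in RNAi and 456 in ZH11 at stage 12, and 80.8 in RNAi and 106 in ZH11 at stage 9.

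CSLC9, of the cellulose synthase-like family, read 273 in RNAi and 1818 in ZH11 at stage 12, and 2496 in RNAi and 1779.6 in ZH11 at stage 9 (-3.22). MGD3, of the galactolipid synthases, read 171 in RNAi and 1056 in ZH11 at stage 12, and 2315 in RNAi and 1745 in ZH11 at stage 9 (-3.03). HMG3, of the reductases at the entry to sterols and other isoprenoids, read 741 in RNAi and 2804 in ZH11 at stage 12, and 2625 in RNAi and 2129 in ZH11 at stage 9 (-2.22). CSLC9, MGD3 and HMG3 were bright on 3 arrays and lowest in RNAi at stage 12. MRS2-A, of the magnesium transporters, had 1 bright array instead, with 978 in RNAi and 4481 in ZH11 at stage 12, and 756 in RNAi and 636 in ZH11 at stage 9 (-2.45). Among positive genes, RR9, a response regulator of cytokinin signalling, read 1187 in RNAi and 739.6 in ZH11 at stage 12, and 949.9 in RNAi and 2696 in ZH11 at stage 9 (2.19). GST1, a glutathione transferase, read 849 in RNAi and 616 in ZH11 at stage 12, and 436 in RNAi and 1579 in ZH11 at stage 9 (2.32). Both were brightest in ZH11 at stage 9.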
